A study of Mus musculus with 2 samples.

Results

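Autophagy and lysosome genes were taken as a fixed list of 36 symbols, and all 36 were found among the 27998 genes of both libraries. The list holds 9 genes of initiation and nucleation, 6 of the conjugation machinery, 5 of the ATG8 family, 2 cargo receptors, 2 transcription factors of the MiT/TFE family, 4 genes of the lysosome membrane and of sterol export, and 8 lysosomal enzymes and activators. Every one of the 36 reached 5 CPM in at least 1 library, where CPM is the number of unique molecular identifiers (UMIs, tags that count single RNA molecules) of a gene among 1000000 UMIs, and so did 9160 genes in all.

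The study asked how loss of Trmt6, which encodes a subunit of the tRNA m1A methyltransferase, alters blood stem and progenitor cells. Lineage-depleted, c-Kit+ Sca-1+ (LSK) cells were sorted from bone marrow of mice aged 3 months and profiled by droplet 3′ single-cell RNA-seq, with 1 library for each of the 2 genotypes. The Trmt6 WT library is given as Trmt6fl/fl by its genotype label, whereas the scheme of this experiment in the study shows wild-type mice that carry Mx1-Cre with unfloxed alleles. The Trmt6 cKO library is given as Trmt6fl/fl, MX1-cre. Mx1-Cre is induced by interferon, and per that scheme mice of both genotypes received the interferon inducer pIpC. It acts in many interferon-responsive cells and not in blood cells alone. How many mice were pooled is not given in the sources used here. With 1 library per genotype, genotype cannot be told apart from library or mouse, and no test across samples was possible. Intervals are given at 95% and express the error of counting alone, and levels are CPM of UMIs summed over cells.

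Autophagy delivers cytoplasmic material to the lysosome. The ULK kinase complex and a class III phosphatidylinositol 3-kinase complex start a membrane, ubiquitin-like conjugation systems attach ATG8 proteins of the LC3 and GABARAP families to it, and cargo receptors such as p62 link ubiquitinated cargo to those proteins. Lysosomal cathepsins and glycosidases, held behind a membrane rich in LAMP proteins, then degrade the content. TFEB and TFE3 drive transcription of many of these genes, and autophagy is known to be needed for the maintenance of blood stem cells.

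The WT library held 8869 barcodes and 47991455 UMIs, of which 8156 cells were kept with a median of 4157 UMIs. The cKO library held 9260 barcodes and 98323201 UMIs, with 8482 kept cells and a median of 10074 UMIs. The libraries shared 24 barcode sequences. Trmt6 was at 63.1 CPM in WT against 50.1 in cKO, although a 3′ tag away from the deleted part does not check a deletion. Of the sort markers, Kit was at 65.2 and 21.8 CPM and Ly6a, which encodes Sca-1, at 36.2 and 146 CPM. The libraries also differed in composition. The summed level of 10 neutrophil markers was 4977 CPM in WT and 8.05 CPM in cKO, with 2 of the 10 at 0 in cKO, and that of 8 granulocyte-monocyte progenitor (GMP) markers was 6304 and 759.5 CPM. The summed level of 9 monocyte and dendritic cell (DC) markers was 1151 and 654 CPM, with none at 0, and that of 9 stem cell markers was 197 and 263 CPM. The part of composition in the differences over all cells was addressed only by the gates and by the settings named beside each result.

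Over all kept cells, the lysosomal protease gene Ctsl and the cargo receptor gene Sqstm1 were the members higher in cKO by a log2 ratio of at least 0.5. A further 6 members were lower by at least as much, namely the lysosomal genes Ctsz and Npc2 and the initiation genes Ulk1, Ulk2, Atg14 and Pik3c3. The 2 higher members are 2 of 36, beside 8.97% of all genes at 5 CPM or more, and the 6 lower members are 6 of 36, beside 18.0% of those genes. In all, 9 members had a positive and 27 a negative log2 ratio, beside 43.1% and 56.9% of all genes. The interval left out 0 for 8 of the positive and 23 of the negative ones, beside 33.0% and 45.7%. The median of the 36 was -0.25, while the median over all 9160 genes was -0.07. Other scalings moved the all-gene median up by 0.10 to 0.11, by TMM and by median-of-ratios factors, and changed the sign of 3 members, Map1lc3a, Gabarapl1 and Lamp1. With either of these scalings 3 members, Atg3 included, were higher by at least 0.5, and 4 lower. Relative to the all-gene median, 12 members lay above and 24 below.

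**Figure D1:**
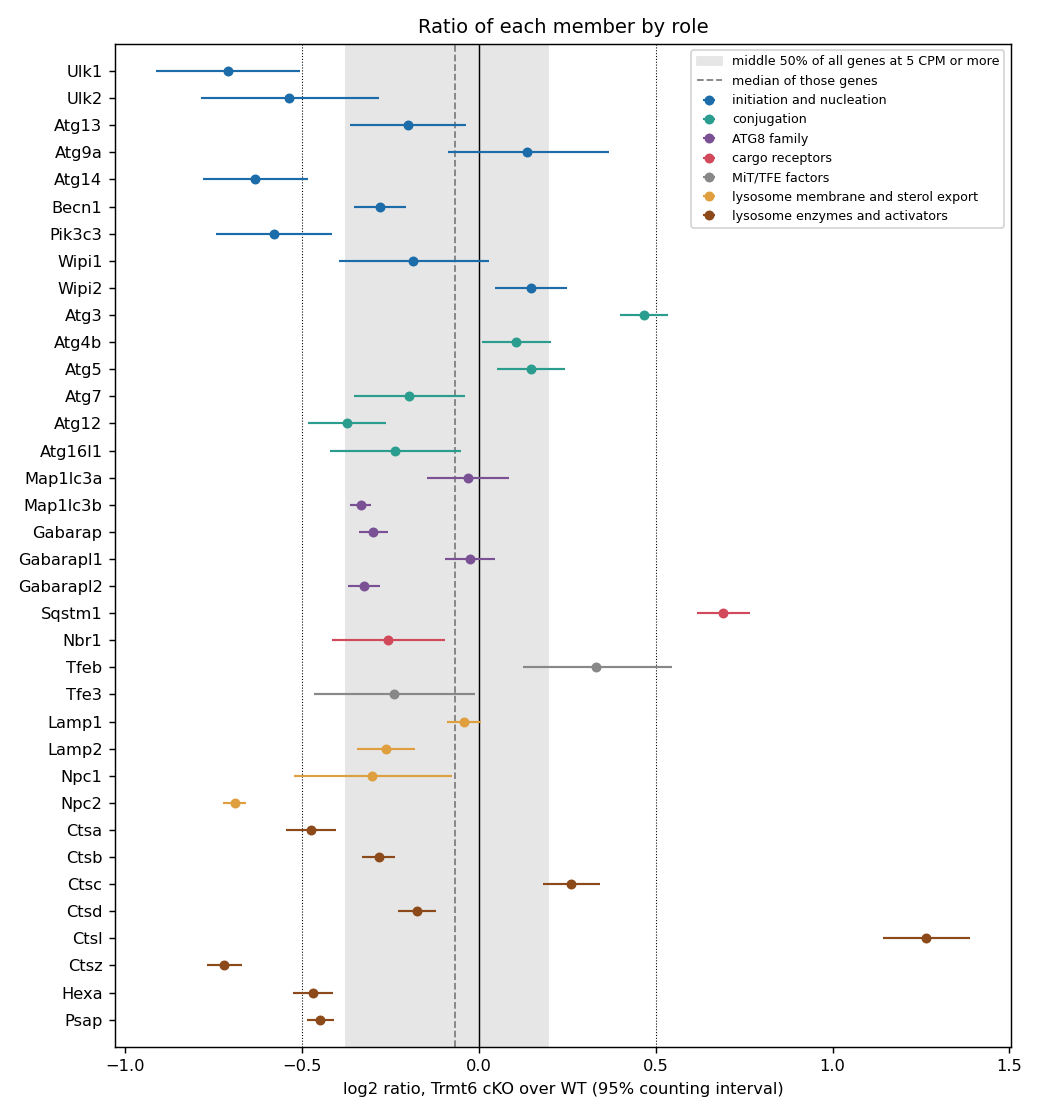
Log2 ratio of CPM, Trmt6 cKO over WT, for each of the 36 genes over all kept cells, with 95% counting intervals and colours for the role. The grey band holds the middle 50% of the 9160 genes at 5 CPM or more, the dashed line is their median of -0.07 and the dotted lines stand at -0.5 and 0.5. Ctsl at 1.26 and Sqstm1 at 0.69 are the 2 points right of 0.5, and 6 genes lie left of -0.5.

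The initiation and nucleation genes were low and mostly lower in cKO. Ulk1, the kinase that starts autophagosome formation, was at 8.46 CPM in WT against 5.17 in cKO, for a log2 ratio of -0.71 (-0.91 to -0.51). Its paralogue Ulk2 was at 5.33 and 3.68 CPM (log2 ratio -0.54, -0.79 to -0.28). Atg14, the subunit that directs the lipid kinase complex to autophagy, was at 15.6 and 10.1 CPM (log2 ratio -0.63, -0.78 to -0.48). These 3 genes and Pik3c3, the catalytic subunit of that complex, were each lower in cKO beyond counting error. Pik3c3 was at 12.5 and 8.34 CPM, a log2 ratio of -0.58 (-0.74 to -0.41). With TMM scaling the log2 ratios of Ulk2 and Pik3c3 were -0.43 and -0.48, short of -0.5. Becn1, which encodes the Beclin 1 scaffold of the complex, had the highest level of this group at 57.6 and 47.5 CPM, with a log2 ratio of -0.28. Atg13, a ULK complex subunit, had a log2 ratio of -0.20. Wipi1 and Wipi2, which bind the lipid that the complex makes, had log2 ratios of -0.19 and 0.15. Under the settings tried, the ratio of Wipi1 ran from -0.22 to 0.015, so its sign was not steady. The ratio of Atg9a, a membrane scramblase, was 0.14 with an interval of -0.09 to 0.37. The group median was -0.28, with 7 of 9 genes lower, beside 56.9% of all genes. For 6 of these 7 the interval lay below 0, beside 45.7% of all genes.

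The conjugation genes were evenly split. Atg3, the E2-like enzyme that couples ATG8 proteins to lipid, was the highest of the group, at 56.5 CPM in WT against 78.2 in cKO. Its log2 ratio of 0.47 (0.40 to 0.53) lay just short of 0.5, and it was 0.57 with median-of-ratios scaling. Atg5 and Atg4b, a conjugation substrate and the protease that primes ATG8 proteins, had log2 ratios of 0.15 and 0.11. The other 3 genes of the group were lower. Atg12, the ubiquitin-like partner of ATG5, had a log2 ratio of -0.37. Atg16l1, which places the ATG12-ATG5 conjugate on membrane, had -0.24, and the E1-like Atg7 had -0.20. The group median was -0.05, close to that of all genes.

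The ATG8 genes ranged from Map1lc3a, at 21.7 CPM in WT, to Map1lc3b, the most abundant member. All 5 had negative ratios when scaled by the total, beside 56.9% of all genes. Map1lc3a and Gabarapl1 turned positive with TMM and with median-of-ratios scaling. Map1lc3b, which encodes LC3B, the usual marker of autophagosomes, was at 364.6 CPM in WT against 289.2 in cKO, for a log2 ratio of -0.33 (-0.36 to -0.31). Gabarapl2 and Gabarap had log2 ratios of -0.32 and -0.30. Map1lc3a and Gabarapl1 differed by less than counting error, with log2 ratios of -0.03 in both. The summed level of the 5 genes was 767 CPM in WT and 627 CPM in cKO.

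The cargo receptors moved apart. Sqstm1, which encodes p62, was at 44.8 CPM (42.8 to 46.9) in WT against 72.3 (70.5 to 74.1) in cKO, for a log2 ratio of 0.69 (0.62 to 0.77), or 1.61-fold. When each cell was scaled to its own total before averaging, the log2 ratio of Sqstm1 was 0.44, and it was 0.43 when cells were thinned to 2000 UMIs. Nbr1, which encodes a related receptor, was at 12.2 and 10.3 CPM (log2 ratio -0.26). Of the transcription factors, Tfeb was at 6.12 CPM in WT against 7.71 in cKO, for a log2 ratio of 0.33 (0.12 to 0.55). The log2 ratio of Tfe3 was -0.24 (-0.47 to -0.01), with 5.08 CPM in cKO.

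Of the lysosomal genes, 10 of 12 had negative ratios, beside the 56.9% of all genes, and of these Lamp1 turned positive with TMM and with median-of-ratios scaling. Npc2, which encodes the soluble protein that hands cholesterol to NPC1 in the lysosome, was at 311.9 CPM in WT against 193.2 in cKO, with a log2 ratio of -0.69 (-0.72 to -0.66). Npc1 itself was at 6.36 and 5.16 CPM (log2 ratio -0.30). The membrane glycoprotein genes Lamp1 and Lamp2 had log2 ratios of -0.04 and -0.26. Among enzymes, Ctsz, a carboxypeptidase, was at 139.9 and 84.9 CPM, a log2 ratio of -0.72 (-0.77 to -0.67). Ctsa, which encodes the protective protein of the lysosomal sialidase, and Hexa, a subunit of beta-hexosaminidase, had log2 ratios of -0.48 and -0.47. With each cell scaled before averaging, the log2 ratio of Hexa was -0.24 and that of Ctsz -0.45, short of -0.5. Psap, the precursor of the saposin activators and the most abundant gene of the enzyme group, was at 215.2 and 157.6 CPM (log2 ratio -0.45). Ctsb and Ctsd, a cysteine and an aspartic protease, had log2 ratios of -0.28 and -0.17. The enzyme group had a median 0.30 below that of all genes. That gap was 0.10 when each cell was scaled before averaging and 0.09 when cells were thinned.

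Ctsl and Ctsc were the exceptions among the enzymes. Ctsl, which encodes the cysteine protease cathepsin L, was at 15.4 CPM (14.2 to 16.6) in WT against 37.0 (35.7 to 38.3) in cKO, from 644 and 3239 UMIs. This was a 2.40-fold higher level, a log2 ratio of 1.26 (1.14 to 1.39), and under the other settings tried it was between 0.99 and 1.37. Ctsc, the protease that activates granule serine proteases of myeloid cells, was at 42.3 and 50.7 CPM (log2 ratio 0.26).

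**Figure D2:**
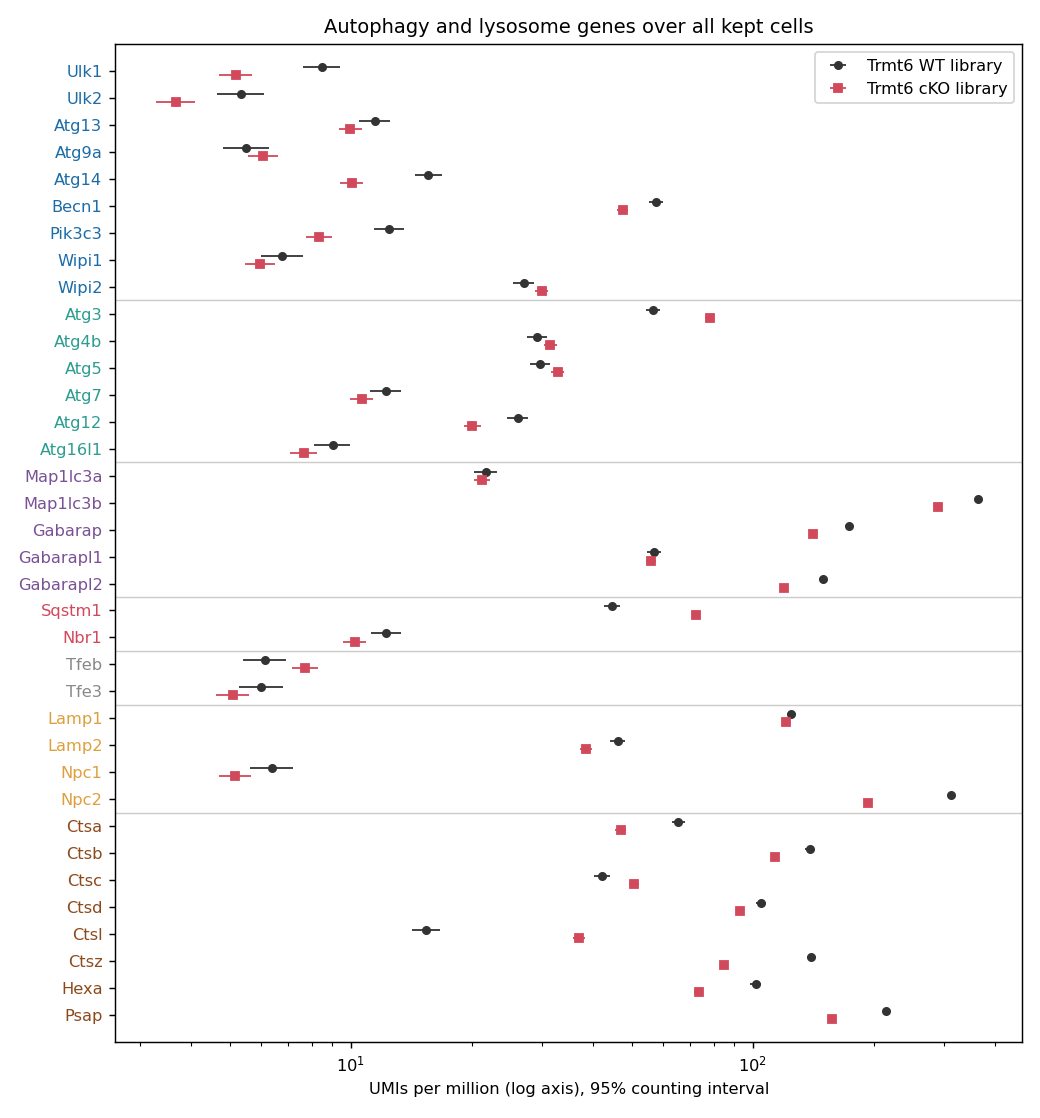
CPM on a log axis for each of the 36 genes in the Trmt6 WT (circles) and cKO (squares) libraries over all kept cells, with 95% counting intervals and lines between roles. Map1lc3b and Npc2 were the most abundant members in WT, at 364.6 and 311.9 CPM, and Ctsl moved from 15.4 to 37.0 CPM.

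To see which letters the promoters of the members hold, windows of 250 bases before to 50 after the start site were taken from RefSeq on GRCm38.p6, which held 29 of the 36 members. Becn1, Pik3c3, Atg12, Atg16l1, Map1lc3a, Npc1 and Ctsb had no entry. The windows of Ctsl, Sqstm1 and Atg3, the 3 members with the largest positive ratios, and of Ctsa are shown 5′ to 3′ on the strand of the gene. Ctsa was chosen after its motifs were seen, for its pair of matches. They lie at chr13:64370471-64370770 (minus strand), chr11:50210771-50211070 (minus strand), chr16:45158579-45158878 (plus strand) and chr2:164833523-164833822 (plus strand, the downstream of 2 start sites). Capitals mark the E-box CACGTG, its longer form TCACGTGA, which is the core of the element that TFEB binds, and TGATGNAA, the composite element of ATF4 and C/EBP proteins, all searched on both strands.
Ctsl: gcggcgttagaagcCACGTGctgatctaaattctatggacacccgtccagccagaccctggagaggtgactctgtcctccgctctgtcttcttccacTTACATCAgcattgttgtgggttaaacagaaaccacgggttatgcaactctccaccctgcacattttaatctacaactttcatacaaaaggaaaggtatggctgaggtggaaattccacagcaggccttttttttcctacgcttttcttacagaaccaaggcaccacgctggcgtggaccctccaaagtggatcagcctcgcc
Sqstm1: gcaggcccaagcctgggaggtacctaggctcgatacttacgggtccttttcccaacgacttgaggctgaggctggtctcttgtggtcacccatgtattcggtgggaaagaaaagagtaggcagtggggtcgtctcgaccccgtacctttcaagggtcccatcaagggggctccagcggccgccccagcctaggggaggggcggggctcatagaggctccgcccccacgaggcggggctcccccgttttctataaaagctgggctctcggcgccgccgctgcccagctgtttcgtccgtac
Atg3: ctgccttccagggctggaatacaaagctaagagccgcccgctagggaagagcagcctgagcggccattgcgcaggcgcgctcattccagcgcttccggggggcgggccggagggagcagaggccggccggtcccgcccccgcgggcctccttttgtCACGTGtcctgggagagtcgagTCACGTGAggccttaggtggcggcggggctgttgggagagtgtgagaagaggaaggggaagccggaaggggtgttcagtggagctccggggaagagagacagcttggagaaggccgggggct
Ctsa: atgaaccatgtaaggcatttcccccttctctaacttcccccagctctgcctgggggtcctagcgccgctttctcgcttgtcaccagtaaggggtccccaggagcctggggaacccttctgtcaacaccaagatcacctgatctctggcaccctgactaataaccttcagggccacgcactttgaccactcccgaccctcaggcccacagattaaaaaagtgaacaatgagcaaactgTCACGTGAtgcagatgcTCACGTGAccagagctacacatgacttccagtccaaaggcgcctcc
The E-box was in the window of 8 of the 29 members (Atg14, Atg3, Atg5, Atg7, Lamp1, Ctsa, Ctsd and Ctsl) and of 8.09% of all genes with a window. The longer form, which contains the E-box, was in 3 of the 29 (Atg3, Ctsa and Ctsd) and in 1.12% of all genes. The composite element was in 1 of the 29, Ctsl, and in 4.51% of all genes. Members with an E-box had ratios of both signs, Ctsl and Atg3 above 0 and Ctsa and Atg14 below. The Sqstm1 window held none of the 3 letter strings, and neither did that of the upstream Ctsa start site (chr2:164832622-164832921). The printed Ctsa window lies inside the gene as GENCODE M21 draws it (chr2:164832873-164841032). The Ctsl window likewise lies inside its gene (chr13:64359337-64370890), so the start sites of the annotations differ. A match describes letters in a window and not binding.

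To compare the members within lineages, cells were thinned to 2000 UMIs and gated by the number of distinct markers detected, with no member used as a marker, and levels were then summed from all UMIs of the gated cells. Of 10 gates, 4 held at least 20 cells in both libraries. The HSC gate held 124 WT and 224 cKO cells, the lymphoid-primed (LMPP) gate 302 and 63, the GMP gate 503 and 25, and the monocyte/DC gate 116 and 67. The cells outside every gate numbered 6608 and 7836. The neutrophil gate held 54 WT cells and 0 cKO cells and was not compared. The content of the compared gates also differed between the libraries. Of the 10 leading genes of the LMPP gate, 5 were its own markers in WT. In cKO 3 were, and 1 was a B cell marker. Cells of the HSC and LMPP gates had a median of 2 GMP markers in WT and 1 in cKO. The part of this in the ratios was not tested. Members with at least 20 UMIs over both libraries were counted, and a member was called where its log2 ratio reached 0.5 or -0.5 with an interval that left out 0.

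In the HSC gate, none of the 31 counted members was called higher, beside 5.33% of all genes, and Ctsa and Ctsd were called lower, beside 9.78%. Ctsa was at 87.9 CPM in WT against 40.0 in cKO, for a log2 ratio of -1.15 (-1.75 to -0.50). Ctsd was at 120.6 and 83.9 CPM (-0.53, -1.01 to -0.02). Neither gene reached -0.5 under looser gates. With 1 marker fewer the ratios of Ctsa and Ctsd were -0.18 and -0.13, with intervals that held 0. With markers counted on all UMIs they were -0.46 (-0.76 to -0.13) and -0.47 (-0.69 to -0.23), still lower beyond counting error. All 7 counted initiation genes had negative ratios, beside 56.5% of all genes in this gate, with a median of -0.76 against -0.09 for all genes, yet each interval held 0. Ulk1, for example, rested on 9 and 15 UMIs and had an interval of -2.53 to 0.13. With 1 marker fewer the median of these 7 was -0.29 and 3 intervals lay below 0, beside 22.3% of all genes. With markers counted on all UMIs the median was -0.82 and 4 intervals lay below 0, beside 21.2%. Atg14 at -1.18 (-1.69 to -0.64) and Ulk1 at -1.02 (-1.68 to -0.31) were beyond counting error with 1 marker fewer. Map1lc3b was at 557.9 CPM in WT against 400.2 in cKO, for a log2 ratio of -0.48 (-0.70 to -0.25).

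The looser HSC gates gave other calls. They held 535 WT and 865 cKO cells with 1 marker fewer, and 359 and 2159 cells with markers counted on all UMIs. The latter setting does not even out the depth of the libraries, whose kept cells had medians of 4157 and 10074 UMIs, so marker detection there is not matched between them. With 1 marker fewer, Ctsl at 0.62 (0.19 to 1.11) and Tfeb were called higher among 36 counted members, beside 7.22% of all genes, and Ulk1, Atg14, Atg12, Map1lc3b and Npc1 lower, beside 17.2%. With markers counted on all UMIs, Ctsl was the 1 member called higher, at 0.74 (0.28 to 1.28), beside 6.46%. Lower calls there were Ulk1, Atg13, Atg14, Wipi1, Atg12, Map1lc3b and Gabarapl2, or 7 of 36, beside 16.8%. Calls in the HSC gate therefore differed with the gate, and those shared by both looser gates were Ctsl, Ulk1, Atg14, Atg12 and Map1lc3b.

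In the LMPP gate, 2 of 28 counted members were called higher, Ctsl and the lipid-binding Wipi2, beside 9.52% of all genes. Another 4 were called lower, Map1lc3b, Gabarapl2, Ctsa and Hexa, beside 11.6%. All 5 ATG8 genes had negative ratios there, beside 52.2% of all genes, and 3 of the 5 had intervals below 0, beside 13.3%, with Map1lc3b at 424.1 and 247.3 CPM. In the GMP gate, Ctsl, Sqstm1 and Atg3 were called higher among 35 counted members, beside 5.44% of all genes, and Hexa, Npc2 and Psap lower, beside 5.74%. In the monocyte/DC gate, Ctsl was called higher among 23 counted members, beside 7.31%, and Ctsz, Hexa and Npc2 lower, beside 8.73%. Cells of the monocyte/DC gate had a median of 2 GMP markers and 1 LMPP marker in WT, and of 0 and 0 in cKO. What this adds to those ratios was not tested. Under the same 2 looser gate settings, some calls no longer reached 0.5 or -0.5. In the LMPP gate these were Ctsa, at -0.21 with 1 marker fewer and -0.42 with markers counted on all UMIs, and Wipi2, at 0.47 with the latter. In the GMP gate they were Atg3, at 0.47 with 1 marker fewer, Npc2, at -0.42 and -0.46 under the 2 settings, and Psap, at -0.46 and -0.41. The log2 ratios of Ctsl and Hexa in the LMPP, GMP and monocyte/DC gates stayed past 0.5 and -0.5 under both settings, with Ctsl in the LMPP gate at 0.63 and Hexa in the monocyte/DC gate at -0.53 nearest to those limits.

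Other calls appeared under the looser settings. In the LMPP gate, 3 members were called higher and 7 lower with 1 marker fewer, of 35 counted, beside 9.23% and 16.1% of all genes. With markers counted on all UMIs they were 3 and 11 of 36, beside 10.7% and 19.2%. Calls absent from the main LMPP gate and present under both settings were Atg3, higher at 0.55 and 0.70, and Atg12, Gabarap, Gabarapl1 and Npc2, lower. Gabarapl1, for example, was at -0.51 and -0.68, against -0.41 (-1.12 to 0.21) in the main gate. In the GMP gate the counts were 2 higher and 5 lower of 36, beside 7.32% and 8.40%, and then 3 and 5, beside 8.62% and 10.2%. Gabarapl1 was the 1 call there that appeared under both, at -0.75 and -0.58 against -0.15 in the main gate. In the monocyte/DC gate they were 2 and 5 of 33, beside 8.84% and 10.8%, and then 3 and 5 of 35, beside 9.14% and 12.2%. Ctsc, a dipeptidyl peptidase gene, was called higher there under both, at 0.58 and 0.61 against 0.66 (-0.13 to 1.46) in the main gate. With markers counted on all UMIs, these gates held 617 WT and 358 cKO cells, 742 and 94 cells, and 230 and 366 cells. The ungated cells gave the same 2 higher and 6 lower members as all cells, beside 11.4% and 22.5% of all genes.

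**Figure D3:**
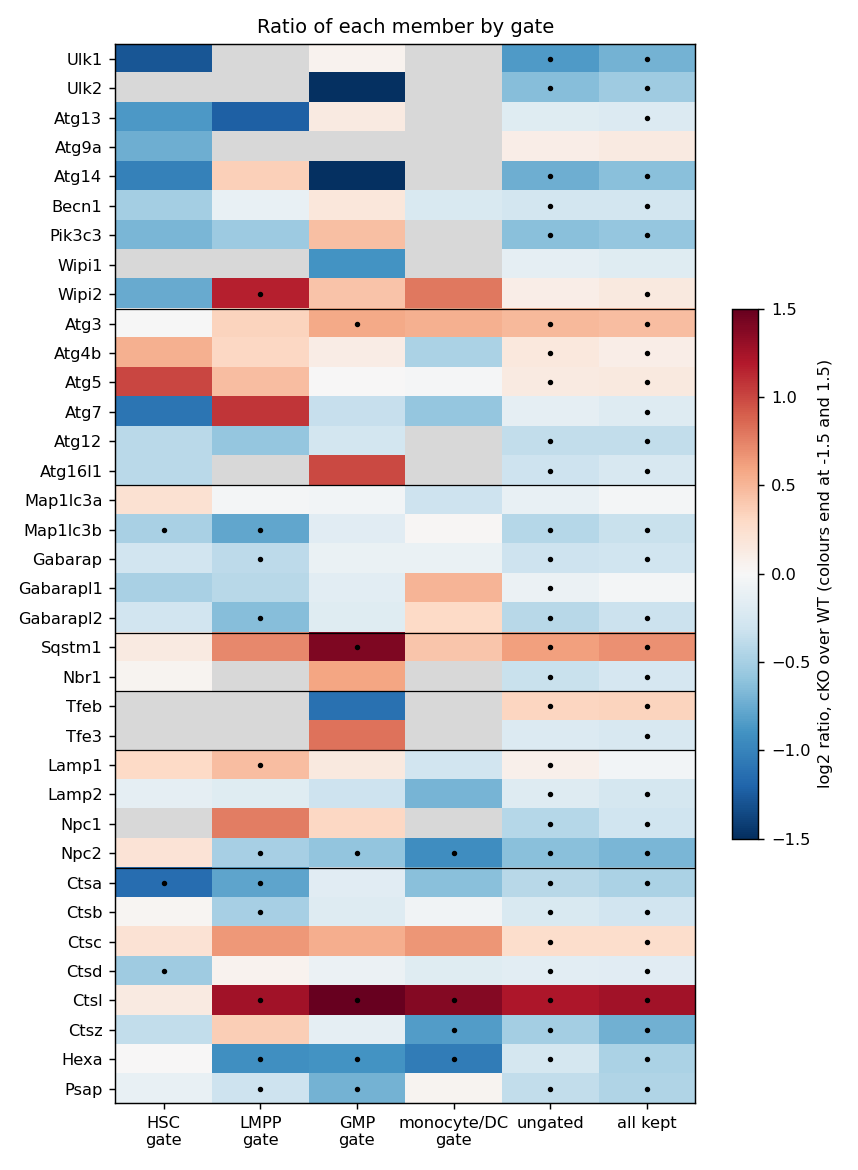
Log2 ratio, cKO over WT, of each member in each gate and over all kept cells, in red where higher in cKO and in blue where lower. Black dots mark intervals that leave out 0 and grey marks fewer than 20 UMIs. Ctsl is red with a dot in the LMPP, GMP and monocyte/DC gates, and Npc2 and Hexa are blue with a dot in those 3.

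Ctsl was at 32.7 CPM in WT against 36.9 in cKO in the HSC gate, a log2 ratio of 0.13 (-0.71 to 1.17) from 13 and 58 UMIs. In the LMPP gate it was at 16.8 and 40.3 CPM (log2 ratio 1.27, 0.35 to 2.17). In the GMP gate it was at 9.47 and 31.7 CPM (log2 ratio 1.78, 0.78 to 2.61), and in the monocyte/DC gate at 17.5 and 46.2 CPM (log2 ratio 1.37, 0.33 to 2.54). Among these 4 gates the WT level was highest in the HSC gate and lowest in the GMP gate, a log2 difference of 1.83 (0.79 to 2.68), while in cKO that difference was 0.18 (-0.64 to 1.17). The WT level of the HSC gate did not differ from those of the LMPP and monocyte/DC gates beyond counting error. Sqstm1 was likewise higher in the HSC gate than in the GMP gate of WT, with a log2 difference of 1.15 (0.50 to 1.71), and the cKO difference was -0.11 (-0.64 to 0.47). It was at 70.4 CPM in the HSC gate and 32.2 CPM in the GMP gate of WT, against 78.1 and 83.8 CPM in cKO.

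The cKO over WT ratio was then set between the GMP and the HSC gates for the 27 members with at least 5 UMIs in each gate and library. The ratio was higher in the GMP gate beyond counting error for 4 members, Ctsl, Sqstm1, Wipi2 and Ctsa, beside 11.7% of 5784 genes, and lower for 3, Npc2, Hexa and Psap, beside 6.86%. The difference was 1.65 (0.45 to 2.85) for Ctsl and 1.27 (0.49 to 2.04) for Sqstm1. For Hexa it was -0.91 (-1.63 to -0.20). With gates of 1 marker fewer the intervals of these 3 were 0.50 to 1.91, 0.97 to 1.82 and -1.53 to -0.69. With markers counted on all UMIs the differences were 1.06, 1.41 and -1.10, with intervals that again left out 0. The ratio of Ctsl in the HSC gate itself was 0.62 and 0.74 under those settings. The differences of Ctsa, Npc2, Psap and Wipi2 had intervals that held 0 with markers counted on all UMIs, and Ctsa also with 1 marker fewer. The cKO side of the GMP gate rested on 25 cells.

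Hexa and Npc2 had intervals below 0 in the LMPP, GMP and monocyte/DC gates, while their intervals in the HSC gate held 0. In looser HSC gates the ratio of Hexa was 0.32 (0.03 to 0.63) with 1 marker fewer, and that of Npc2 was -0.33 (-0.48 to -0.17) with markers counted on all UMIs, against 0.21 in the main gate. Hexa was at 175.6 CPM in WT against 92.9 in cKO in the GMP gate, and at 80.4 and 81.9 CPM in the HSC gate. Npc2 was at 514.3 and 268.9 CPM in the monocyte/DC gate, at 408.1 and 269.6 CPM in the GMP gate, and at 218.6 and 254.1 CPM in the HSC gate. In WT both genes therefore stood higher in the GMP gate than in the HSC gate, whereas in cKO the levels of the GMP and HSC gates lay closer together. Levels of Ctsz in the GMP gate were 269.4 and 244.7 CPM, a log2 ratio of -0.13 (-0.43 to 0.14), although it was called lower over all cells. With markers counted on all UMIs the log2 ratio of Ctsz in that gate was -0.34 (-0.56 to -0.13), beyond counting error. The gene was also called lower in the monocyte/DC gate, at -0.84, and in ungated cells, at -0.50. The GMP gate held 25.8% of the Ctsz UMIs of the WT library and 1.45% of those of the cKO library, beside 13.4% and 0.504% of all UMIs. With both libraries given the same mix of gates, the log2 ratio of Ctsz was -0.47, that of Npc2 was -0.61 and that of Ctsl was 1.17. This mix kept the ungated cells as 1 class, with 83.05% of the thinned WT cells and 93.5% of the thinned cKO cells. It left out gates with fewer than 10 cells in a library. It therefore did not even out composition within the ungated cells. Cells 1 marker short of the GMP gate numbered 834 in WT and 54 in cKO.

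**Figure D4:**
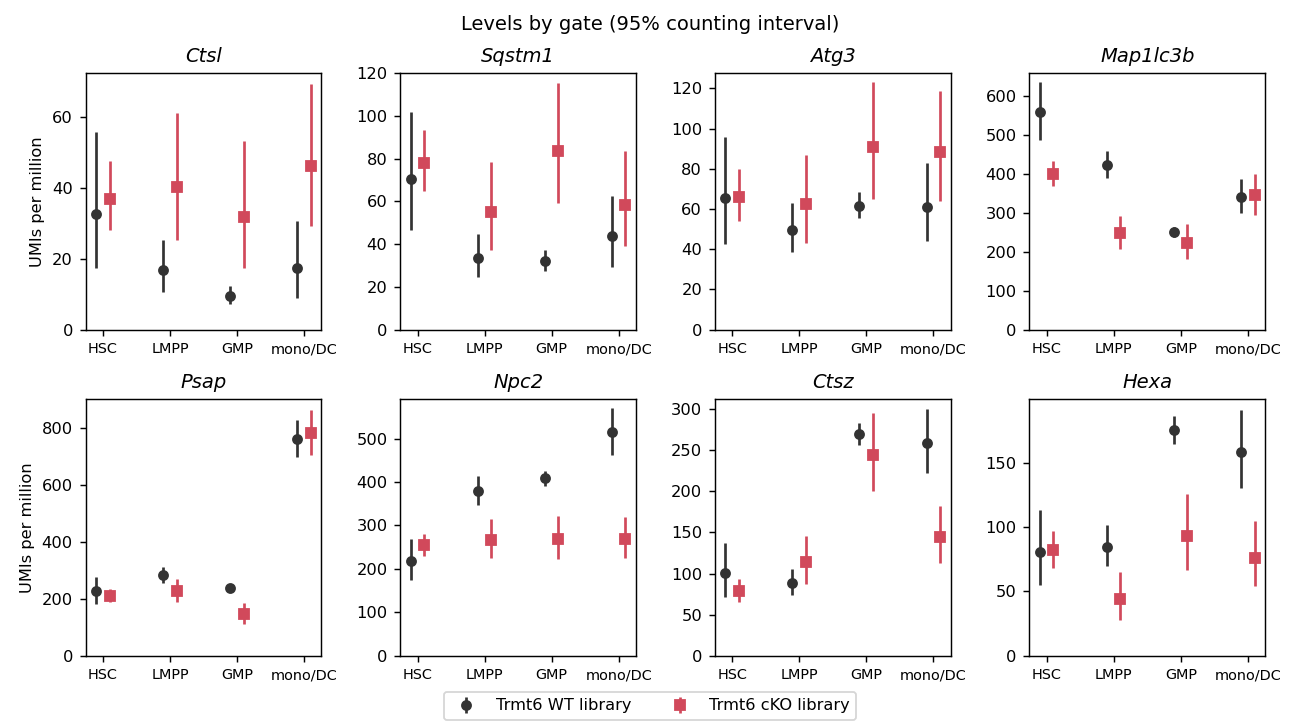
CPM of 8 members by gate in the Trmt6 WT (circles) and cKO (squares) libraries, with 95% counting intervals and axes that start at 0. The intervals of Ctsl and Sqstm1 overlap in the HSC gate and not in the GMP gate, although the HSC levels of Ctsl were 26.4 and 41.0 CPM with 1 marker fewer, and Psap is highest in the monocyte/DC gate of both libraries, at 762 and 783 CPM.

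Some differences between lineages were found in both libraries. Of the 27 members, Map1lc3b, Gabarap, Gabarapl1 and Gabarapl2 were higher in the HSC gate than in the GMP gate in both libraries beyond counting error, beside 8.11% of the 5784 genes. These are 4 of the 5 ATG8 genes. The fifth, Map1lc3a, had 4 UMIs in the cKO GMP gate, under the minimum, and was also higher in the HSC gate, with log2 differences of 1.34 (0.14 to 2.26) in WT and 1.60 (0.30 to 3.68) in cKO. Map1lc3b was 558 CPM in the HSC gate and 251 CPM in the GMP gate of WT, and 400.2 and 222 CPM in cKO. Gabarapl1 was at 120.6 and 38.9 CPM in WT and at 87.0 and 34.0 CPM in cKO. Lamp1 and Ctsz were lower in the HSC gate in both, beside 8.09%. Lamp1 was at 98.0 CPM in the HSC gate and 182.9 CPM in the GMP gate of WT, and at 121.3 and 201.6 CPM in cKO. Psap was higher in the monocyte/DC gate, with a log2 difference from the HSC gate of 1.75 (1.43 to 2.09) in WT and 1.90 (1.69 to 2.12) in cKO. With 1 marker fewer these differences were 1.29 and 0.88, and with markers counted on all UMIs 1.05 and 0.59, each with an interval above 0. The cKO over WT ratio of Psap in the monocyte/DC gate was 0.04, but -0.50 (-0.66 to -0.34) with 1 marker fewer and -0.72 with markers counted on all UMIs.

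The other genes of these pathways were described over all cells. Of 27 other autophagy genes at 5 CPM or more, 0 were higher and 5 lower by at least 0.5, with a median of -0.12. Of 38 other lysosomal genes, 0 were higher and 12 lower, with a median of -0.30, and of 15 vacuolar ATPase subunits, which acidify the lysosome, 0 were higher and 2 lower, with a median of -0.29. These counts stand beside the 8.97% and 18.0% of all genes. The 3 lowest of these genes were Ctsf, which encodes cathepsin F, with a log2 ratio of -1.76, the macrophage glycoprotein gene Cd68 with -1.45 and Gm2a, the activator of beta-hexosaminidase A, which was at 172.9 and 75.5 CPM. The 3 highest were Tex264, a receptor for autophagy of the endoplasmic reticulum, with 0.38, the tetraspanin gene Cd63 with 0.37 and Atg16l2, a paralogue of Atg16l1, with 0.27. No gene of these 3 lists thus reached the ratio of Ctsl or Sqstm1.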

How the data were processed

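Single-cell RNA was measured in 1 Trmt6 WT and 1 Trmt6 cKO library, grouped by their labels. The deposited matrices hold raw UMI counts per gene and barcode, made by the authors using Cell Ranger 6.0.0 and mm10 per the submitters' processing notes. The labels name version 2 of the kit and the methods another version, which is not resolved here. Reads were not analysed.

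The cell limits of the study were applied: over 200 genes, under 4000 (WT) or 4500 (cKO) genes, under 10% (WT) or 5% (cKO) mitochondrial UMIs and under 5% hemoglobin UMIs. Doublets were scored against simulated doublets among 50 neighbours, and the highest scores were removed at 0.8% per 1000 barcodes. For gating, each cell was cut to 2000 UMIs at random, and 199 shallower WT cells and 104 shallower cKO cells were left out.

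UMIs were summed per library or gate. Intervals are exact Poisson for CPM and exact conditional binomial for log2 ratios, with 0.5 prior counts, and differences of ratios used a normal approximation (numpy 2.4.6, scipy 1.17.1, pandas 2.3.3; TMM from edgeR 4.0.16). The ratios and their intervals were checked on simulated counts with Poisson error alone, the error that the intervals assume. That check does not cover variation between cells, gates or mice. UMIs are molecules after amplification, so intervals cover counting error only. All 36 members are described, those at a log2 ratio of at least 0.5 or at most -0.5 and the highest of each role with both levels, and of the other pathway genes the 3 highest and 3 lowest ratios are named. The members and lists were chosen with earlier results of these data known. The contrasts between gates and the gates with 1 marker fewer were added after the data were seen.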

Additional observations from a re-analysis of the deposited data

How the results depend on the processing

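No paired analysis was possible because each genotype has 1 library. For the same reason no library could be left out. Of the medians of roles, lists and gates under the alternatives, 101 moved by less than the spread set for them and 6 by more. For a median, that spread ran from the median lower to the median upper interval end of the single genes. It is not the spread of a median. Single-gene intervals in gates are wide, so a median that stayed within it says little there. Of all 107 medians, the only one to change sign was that of the monocyte/DC gate, from -0.07 to 0.06 with 1 marker more. Ratios of single members were less steady: 96 of 324 over all cells and 56 of 350 in gates moved by more than the spread set for them. Some in gates changed sign, such as Npc1 in the LMPP gate, from 0.77 to -0.76 with 1 marker fewer. Relative to all genes, the conjugation median went from 0.02 to 0.15 with a minimum of 10 CPM. The ATG8 median went from -0.23 to -0.17 with cells scaled before averaging and to -0.19 with cells thinned. The enzyme median went from -0.30 to -0.0998 with cells scaled, to -0.093 with cells thinned and to -0.19 with the same mix of gates. The count of members at 0.5 or more went from 2 to 1 with cells scaled, since Sqstm1 was then at 0.44. The causes were not tested. The other 21 counts, all of members over all cells, stayed within 1.5 times. With cells thinned the count at 0.5 or more stayed at 2, but Sqstm1 was at 0.43 and Atg3 took its place. Counts of calls in gates are not among these and varied more, as described above. The gates rest on few cells, 25 in the cKO GMP gate.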
